A study of Rattus norvegicus with 6 samples.

Results

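The genes of glucose uptake and glycolysis examined here were Slc2a1, Hk2, Gapdh and Ldha, 4 of the 34052 features in the deposited table. They were taken by Ensembl identifier: ENSRNOG00000007284 for Slc2a1, ENSRNOG00000006116 for Hk2, ENSRNOG00000018630 for Gapdh and ENSRNOG00000013009 for Ldha. All 4 reached 1 FPKM in at least 3 libraries and so were among the 13576 features tested. FPKM express fragments relative to feature length and library total. The RNA came from neonatal rat ventricular cardiomyocytes, heart muscle cells taken from newborn rats and kept in culture. It was sequenced in 6 libraries, 3 from control cells and 3 from cells given erastin at 10 µM for 24 h. Both groups were cultures of the same cell type with no other named agent or genetic change, and rat strain, sex and the vehicle of the controls are not named in the labels. Erastin inhibits system xc-, which imports cystine in exchange for glutamate, and it serves to trigger ferroptosis, a death of cells that depends on iron and on oxidised membrane lipids.

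Glucose enters a cell through facilitative transporters and is trapped there by phosphorylation, after which glycolysis splits it to pyruvate and yields ATP and NADH. Pyruvate is either oxidised in mitochondria or reduced to lactate, which regenerates the NAD+ that glycolysis needs. Newborn heart muscle relies strongly on glycolysis and turns toward fatty acid oxidation as it matures. Slc2a1 encodes GLUT1, the transporter that carries basal glucose uptake and is abundant in the fetal and newborn heart. Hk2 encodes hexokinase 2, which phosphorylates glucose and can sit on the mitochondrial outer membrane. Gapdh encodes glyceraldehyde-3-phosphate dehydrogenase, the NADH-forming step of glycolysis, and its transcript is often used as a reference in RNA measurements. Ldha encodes the A subunit of lactate dehydrogenase, which reduces pyruvate to lactate.

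Slc2a1 and Hk2 rose with erastin, by 2.93-fold and 2.98-fold in mean FPKM, and Gapdh and Ldha fell, by 13% and 41.1%. The small fall of Gapdh did not pass the threshold under quantile normalization (limma, log2 fold change -0.049, adjusted p = 0.168). All 4 passed the threshold of the test across all features (limma, Benjamini-Hochberg adjusted p under 0.05), where 66.4% of all tested features passed. A change as such was therefore common: 42.3% of the tested features rose and 24.1% fell. A rise of at least 2-fold in mean FPKM that also passed the threshold was less common, at 7.42% of the tested features, and Slc2a1 and Hk2 had such a rise. The values of the 3 control and the 3 erastin libraries did not overlap for any of the 4 genes, as for 72% of all tested features.

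The sequences before the start of each gene are shown because Slc2a1 and Hk2 rose together while Gapdh and Ldha fell. Each is the 250 bases upstream of the start of the gene in RefSeq on build GRCr8, 5′ to 3′ on the strand of the gene. All 4 symbols were found in the RefSeq promoter table. The windows are chr5:138002272-138002521, plus strand, for Slc2a1, chr4:116841276-116841525, minus strand, for Hk2, chr4:159652468-159652717, minus strand, for Gapdh, and chr1:106507842-106508091, plus strand, for Ldha. The build behind the deposited values is not given in the sources used here, and no value was read by these coordinates. Capitals mark ACGTG on either strand, which reads CACGT on the other strand. It is a form of the core of the element bound by hypoxia-inducible factors. The form GCGTG was neither marked nor counted.
Slc2a1: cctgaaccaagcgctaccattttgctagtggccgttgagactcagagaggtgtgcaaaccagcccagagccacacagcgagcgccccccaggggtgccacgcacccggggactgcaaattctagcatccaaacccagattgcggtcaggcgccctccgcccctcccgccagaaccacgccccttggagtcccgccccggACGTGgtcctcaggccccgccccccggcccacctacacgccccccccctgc
Hk2: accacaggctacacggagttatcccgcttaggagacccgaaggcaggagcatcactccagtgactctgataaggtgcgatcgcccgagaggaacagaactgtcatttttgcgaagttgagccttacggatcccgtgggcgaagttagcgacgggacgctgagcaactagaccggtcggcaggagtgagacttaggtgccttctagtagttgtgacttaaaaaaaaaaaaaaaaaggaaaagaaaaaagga
Gapdh: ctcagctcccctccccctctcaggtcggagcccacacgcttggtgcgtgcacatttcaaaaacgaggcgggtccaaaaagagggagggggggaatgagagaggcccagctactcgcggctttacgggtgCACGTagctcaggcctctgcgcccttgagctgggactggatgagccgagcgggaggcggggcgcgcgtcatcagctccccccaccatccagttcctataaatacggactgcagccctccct
Ldha: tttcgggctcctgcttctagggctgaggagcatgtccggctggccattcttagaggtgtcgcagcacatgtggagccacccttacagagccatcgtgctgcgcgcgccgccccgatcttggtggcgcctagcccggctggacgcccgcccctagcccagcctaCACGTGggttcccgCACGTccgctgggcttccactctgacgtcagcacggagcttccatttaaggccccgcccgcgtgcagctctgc

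The marked letters, ACGTG, were counted in each window, and whether they bear on the changes was not tested. They were found at 1 place in the window of Slc2a1, which rose, and not in that of Hk2, which rose as well. The window of Gapdh held 1 match and that of Ldha 3, and both genes fell. GCGTG, the form left uncounted, also occurs in the windows of Slc2a1, Gapdh and Ldha, either strand considered. The counts of ACGTG are therefore not totals of the core and do not rank these windows. A match of ACGTG starts 51 bases before the start of Slc2a1 and 121 bases before that of Gapdh. In Ldha the matches start 87, 86 and 73 bases before the start, and those at 87 and 86 are the 2 strands of a single CACGTG, the E-box. Of 33469 promoter windows of the same length, 16.6% held ACGTG and 5.6% held CACGTG, both strands searched. The GC box GGGCGG, which 30.5% of all windows held, had 3 matches each in Slc2a1 and Ldha and none in Hk2 and Gapdh. Only the Gapdh window among the 4 held TATAAA, 26 bases before the start, against 12.9% of all windows. The core of the antioxidant response element, TGACNNNGC, was in none of the 4 windows and in 10.1% of all. The CCAAT box, CCAAT, was likewise in none of the 4 and in 34% of all. The Hk2 window held no match to any of the motifs searched. The windows also differed in base composition, with 68.4% G and C in Slc2a1, 49.6% in Hk2, 63.6% in Gapdh and 66.4% in Ldha, where the median of all windows was 51.2%. A match is a stretch of letters and does not show that a factor binds there. Only 1 annotated start was used per gene, and whether these cells use it was not tested. Sequence outside these windows was not searched, so the lack of a match does not show that a gene lacks the element.

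Slc2a1, the transporter, stood at 46.4, 52.1 and 45.4 FPKM in control libraries 1, 2 and 3 and at 143, 145 and 134 FPKM in erastin libraries 1, 2 and 3. The lowest erastin library was far above the highest control library, and control library 2 was the highest of its group. The means were 48.0 ± 3.59 and 141 ± 6.18 FPKM (SD, n = 3). The difference was 1.53 on the log2(FPKM + 1) scale (SE 0.058, limma's 95% interval 1.40 to 1.67, adjusted p = 2.77e-07), with every erastin library (3 of 3) above every control library. Behind these values stood 1059 to 1574 reads in the control and 3014 to 3539 in the erastin libraries, on a counted length of 2027 bases. By mean level Slc2a1 went from rank 1979 to rank 626 of all features. Its log2 fold change was the 252nd highest of the 13576 tested, so that 1.85% of the tested features rose more.

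Hk2, the hexokinase, stood at 13.3, 14.7 and 12.6 FPKM in control libraries 1, 2 and 3 and at 40.5, 41.2 and 39.2 FPKM in erastin libraries 1, 2 and 3. The libraries stood in the same order as for Slc2a1, with replicate 2 highest and replicate 3 lowest in each group. The means were 13.5 ± 1.07 and 40.3 ± 1.01 FPKM (SD, n = 3). The log2 fold change was 1.51 (SE 0.059, limma's 95% interval 1.37 to 1.65, adjusted p = 3.19e-07), again with 3 of 3 erastin libraries above all controls. The gene was covered by 785 to 1189 reads in the control and 2371 to 2691 in the erastin libraries over a counted length of 5432 bases. It moved from rank 6214 to rank 2674 by mean level, and 1.92% of the tested features rose more. Hk2 had the lowest FPKM of the 4 genes in every library.

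Gapdh, the dehydrogenase in the middle of the pathway, was at 1075, 1080.1 and 1082 FPKM in control libraries 1, 2 and 3 and at 961, 933 and 922 FPKM in erastin libraries 1, 2 and 3. Its control libraries were nearly equal, and all 3 erastin libraries lay below them. The means were 1079 ± 4.0 and 939 ± 20.2 FPKM (SD, n = 3). Its log2 fold change was -0.20 (SE 0.029, limma's 95% interval -0.27 to -0.13, adjusted p = 0.000396), and 25.3% of the tested features had a lower one. It had 12391 to 16141 reads in the control and 10277 to 11232 in the erastin libraries on a counted length of 1002 bases. By mean level it went from rank 35 to rank 36, so that its place among the most abundant features hardly moved while its FPKM fell. Quantile normalization, under which it lost its call, makes the distributions of the libraries equal.

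Ldha, the lactate-forming subunit, was at 1094, 1118 and 1057 FPKM in control libraries 1, 2 and 3 and at 666, 653 and 606 FPKM in erastin libraries 1, 2 and 3. The lowest control library was well above the highest erastin library. The means were 1090.0 ± 30.8 and 642 ± 31.7 FPKM (SD, n = 3), 1.70-fold lower with erastin. The log2 fold change was -0.76 (SE 0.043, limma's 95% interval -0.86 to -0.66, adjusted p = 2.05e-06). The gene had 19464 to 26689 reads in the control and 10787 to 12561 in the erastin libraries on a counted length of 1600 bases. It fell from rank 34 to rank 89 by mean level, and 8.0% of the tested features had a lower log2 fold change. RefSeq on GRCr8 lists 79 pseudogenes named after Gapdh and 30 named after Ldha, and none named so after Slc2a1 or Hk2. The sources used here do not say how reads shared with such copies were counted, so the levels of Gapdh and Ldha are less certain than their read numbers imply.

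**Figure D1:**
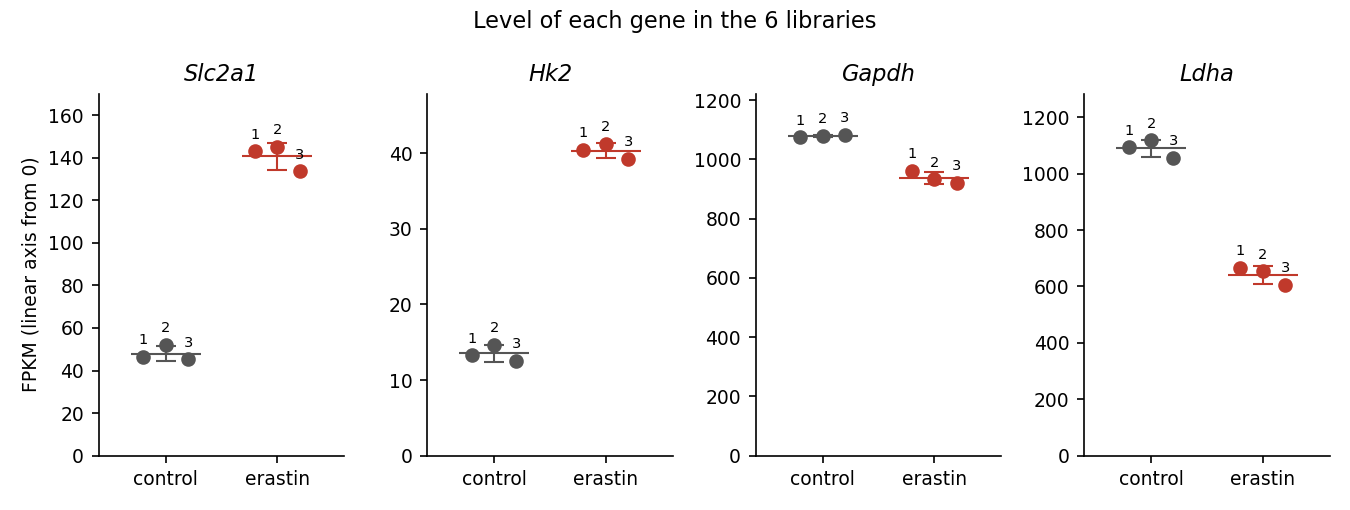
FPKM of Slc2a1, Hk2, Gapdh and Ldha (vertical axes, linear, each from 0) in the control and erastin libraries; points are single libraries with their replicate number, wide bars the group means and error bars the SD (n = 3). Slc2a1 and Hk2 are higher in all 3 erastin libraries, and Gapdh and Ldha are lower in all 3, with a far smaller step for Gapdh.

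The order of the 4 levels was largely kept. Per length, Gapdh and Ldha were the highest, Slc2a1 followed and Hk2 was the lowest in both groups. In control libraries Gapdh and Ldha were not apart beyond their spread: Ldha was higher in libraries 1 and 2 and Gapdh in library 3. In all 3 erastin libraries Gapdh was above Ldha, with a Gapdh/Ldha ratio of 1.46 ± 0.050 against 0.99 ± 0.030 in control (SD, n = 3). The sum of the 4 genes held 0.411 ± 0.0069% of the FPKM of a control library and 0.326 ± 0.011% of an erastin library (SD, n = 3). The difference, -0.0853 percentage points, had p = 0.1 in an exact two-sided permutation test, the lowest p that 6 libraries in 2 equal groups can reach. Its size depended on the denominator: it was -0.0524 percentage points of the recovered reads, and -0.156 percentage points of the FPKM left when the 100 most abundant features were taken out of the library total but Gapdh and Ldha, which are among them, stayed in the sum. In the mean, Ldha fell by 448 FPKM and Gapdh fell by 140.5 FPKM, while Slc2a1 gained 92.7 FPKM and Hk2 26.8 FPKM.

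Ratios of 2 genes within a library do not depend on the library total, and 6 such ratios were compared. The tests were on log2 ratios with 1 FPKM added to each gene. That addition leaves some dependence on the total, most for Hk2, the lowest of the genes. The Slc2a1/Hk2 ratio was 3.49, 3.55 and 3.62 in control libraries 1, 2 and 3 and 3.54, 3.52 and 3.41 in erastin libraries 1, 2 and 3. These values overlapped between the groups. On the log2(FPKM + 1) scale the ratio differed by 0.023 between the groups (exact two-sided permutation p = 0.3, Benjamini-Hochberg adjusted p = 0.3 over the 6 ratios). With pseudocounts of 0.1 and 0.01 FPKM the sign turned, with differences of -0.021 and -0.025, so no direction can be given.

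The other 5 ratios did not overlap between the groups, and each stood at that lowest p of 0.1 in the exact permutation test (adjusted p = 0.12). For the ratios of Slc2a1 or Hk2 to Gapdh or Ldha this outcome was fixed by the levels. The first 2 genes were higher and the last 2 lower in every erastin library, so these tests add nothing to the single genes. The ratios also share genes, and how often other pairs of features fail to overlap was not computed. Gapdh/Ldha rose by 0.56 on the log2 scale, from 0.982, 0.966 and 1.02 in control libraries 1, 2 and 3 to 1.44, 1.43 and 1.52 in the erastin libraries. Relative to Gapdh, Ldha was lower in every erastin library than in any control library. Against Gapdh, Slc2a1 was 3.37-fold and Hk2 3.43-fold higher with erastin, against 2.93-fold and 2.98-fold in FPKM. Against Ldha, the rises were 4.99-fold for Slc2a1 and 5.08-fold for Hk2. The log2 differences of these ratios, with 1 FPKM added to each gene, were 1.74 and 1.71 against Gapdh and 2.30 and 2.28 against Ldha. With 0.1 FPKM added they were 1.75 and 1.77 against Gapdh and 2.32 and 2.34 against Ldha. A ratio shows unequal change and does not show which of its genes moved.

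**Figure D2:**
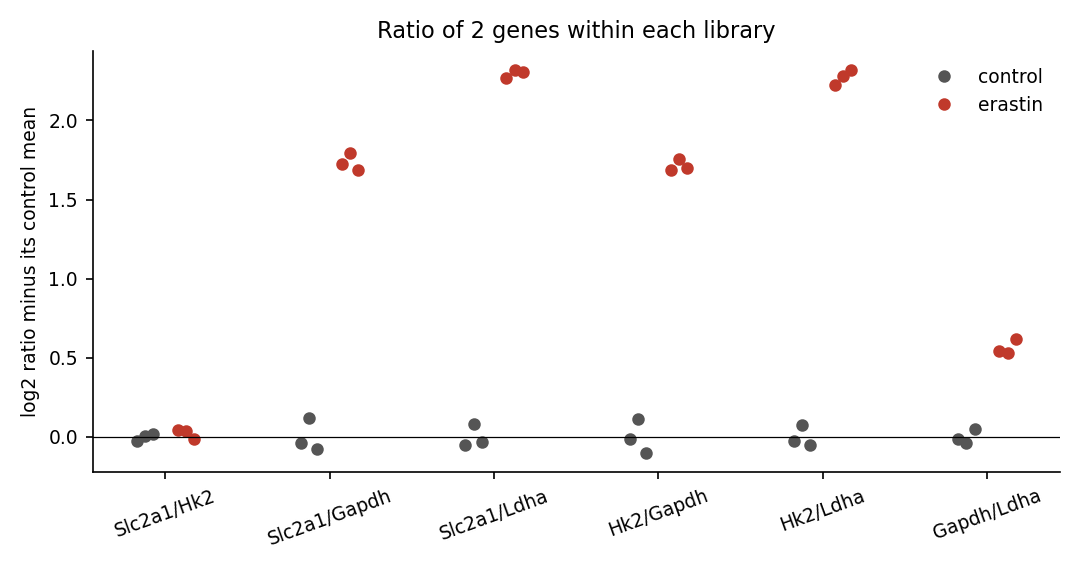
Log2 ratio of each pair of genes in each library minus the control mean of that ratio (vertical axis) for the 6 pairs (horizontal axis); each point is a library, 3 control and 3 erastin. Slc2a1/Hk2 stays near 0 in both groups, Gapdh/Ldha lies about 0.56 higher with erastin, and the ratios of Slc2a1 or Hk2 to Gapdh or Ldha lie 1.71 to 2.30 higher.

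The scaling of the libraries touched the size of these changes and not the direction of any of the 4 genes. Under quantile normalization the fall of Gapdh did not pass the threshold. Of all tested features, 5744 rose and 3267 fell in the deposited FPKM, with a median log2 fold change of 0.13. Centring every library on the median of its log ratios shifted erastin relative to control by 0.13 and gave 4253 rising and 4287 falling features. Relative to that shift the log2 fold changes were 1.41 for Slc2a1, 1.38 for Hk2, -0.33 for Gapdh and -0.89 for Ldha, and all 4 passed the threshold (limma, highest adjusted p = 2.89e-05, for Gapdh). In the most abundant of 5 equal groups of features by mean FPKM, which held Slc2a1, Gapdh and Ldha, 51.4% of features rose and 29.8% fell. In the next group, which held Hk2, 53.6% rose and 22.4% fell.

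**Figure D3:**
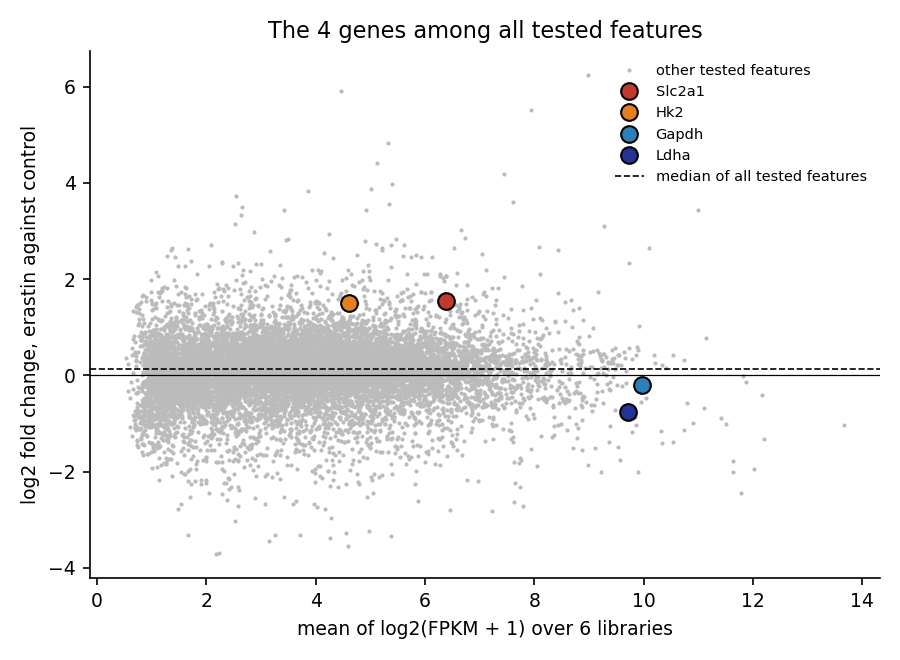
Log2 fold change of erastin against control (vertical axis) by the mean of log2(FPKM + 1) over 6 libraries (horizontal axis) for the 13576 tested features (grey), with the 4 genes in colour and the median of all features as a dashed line. Slc2a1 and Hk2 lie above the median line, with 1.85% and 1.92% of all tested features higher, Gapdh lies slightly below 0 and Ldha lower.

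**Figure D4:**
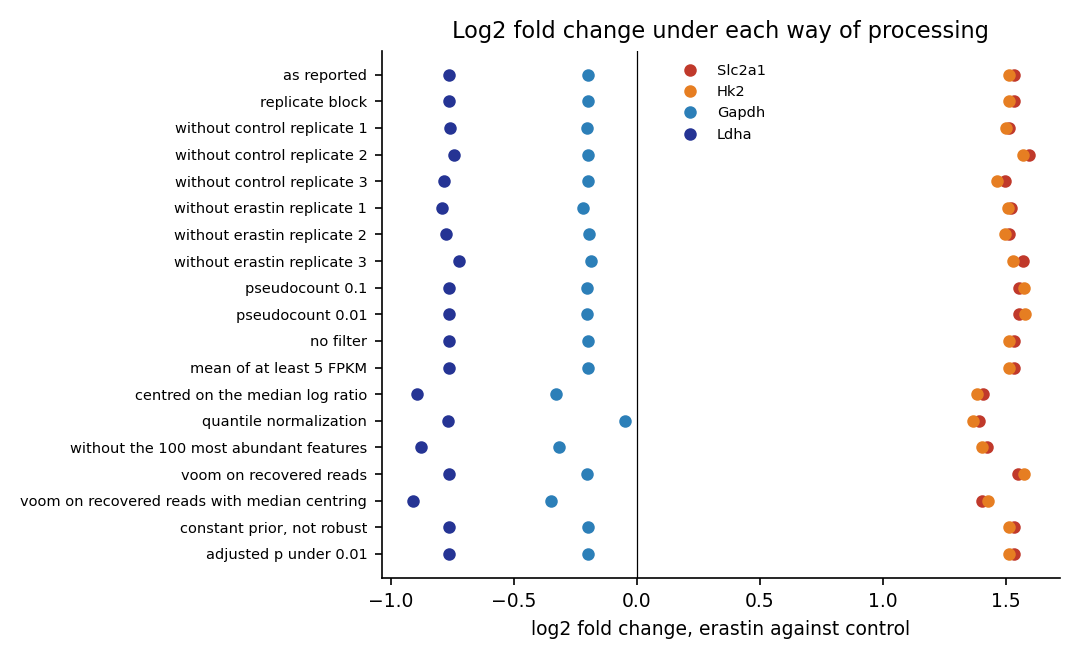
Log2 fold change of each gene (horizontal axis) as reported and under each of 18 other ways of processing (vertical axis). The values stay between 1.36 and 1.59 for Slc2a1 and Hk2, between -0.91 and -0.72 for Ldha, and between -0.35 and -0.049 for Gapdh, whose value nearest 0 is that with quantile normalization. The setting without the 100 most abundant features kept Gapdh and Ldha, which are among them.

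The spread between libraries was compared with the spread that counting alone would give. For Slc2a1 the variation of the reads over the libraries of a group was 7.30 times the counting expectation in control and 6.26 times in erastin libraries (chi-square per degree of freedom). For Hk2 the same quantity was 6.15 and 1.57, for Gapdh 0.172 and 4.89, and for Ldha 17.9 and 28.0. This ratio grows with the number of reads, so it does not rank the genes by their spread. The coefficient of variation of Ldha was 2.83% in control and 4.94% in erastin libraries, where counting alone gives 0.673% and 0.923%. That of Gapdh was 0.370% and 2.16%. Slc2a1 and Hk2 varied by 7.48% and 7.96% in control libraries, where counting alone gives 2.84% and 3.27%, and by 4.4% and 2.50% in erastin libraries. Slc2a1, Hk2 and Ldha were highest in control library 2 and lowest in control library 3, and all 4 genes were lowest in erastin library 3. Control library 2 was also the deepest, at 14914827 recovered reads, where the other 5 libraries had 11126968 to 12017459, and without it the log2 fold changes were 1.59, 1.57, -0.20 and -0.75 for Slc2a1, Hk2, Gapdh and Ldha.

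The feature most like each gene was found by Pearson's r over the 6 libraries on log2(FPKM + 1), given as a description. It was the same feature, ENSRNOG00000001229, for Slc2a1 (r = 0.9997) and Hk2 (r = 0.99995). This feature was at 33.7 ± 2.43 FPKM in control and 89.8 ± 2.49 FPKM in erastin libraries (SD, n = 3), and its log2 fold change was 1.39. For Gapdh it was ENSRNOG00000016744 (r = 0.9996), at 10.4 ± 0.030 and 7.82 ± 0.317 FPKM (SD, n = 3). For Ldha it was ENSRNOG00000001091 (r = 0.9997), at 17.9 ± 0.30 and 13 ± 0.440 FPKM (SD, n = 3). Such values are mostly set by the step between the groups, and r was above 0.99 for 941 features with Slc2a1, 1037 with Hk2, 345 with Gapdh and 603 with Ldha.

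Other genes of glucose transport, glycolysis, lactate handling, the pentose phosphate pathway and glycogen were not analysed here. The deposited table gives identifiers without symbols, and the reference table matched 0 of them. For the same reason the labelled cell type was not checked against cardiomyocyte markers or those of other heart cells, and their part in these results was not tested. In RNA from whole cultures, fewer cells of a type and less RNA per cell cannot be told apart.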

How the data were processed

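The 3 control and 3 erastin libraries of cultured rat cardiomyocytes were grouped by sample title. Libraries were made from poly(A) RNA with dUTP-marked second strands and sequenced from paired ends, per the labels' protocols. The submitters' processing notes name HISAT2 2.0.5 and DESeq2 with no role. Neither the counting tool nor the build or annotation is given in the sources used here. Values deposited by the authors are FPKM for 34052 features, which divides by library total, so a change in abundant features shifts all others. The labels do not say that libraries came from separate cultures, so the p-values describe the spread among these libraries alone, and that spread may be technical.

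The 4 genes and their symbols came with the rule that chose them, and members and lists were chosen with earlier results of these data known. Reads were recovered as whole multiples of the step that 1 read gives. Every tested feature gave a solution, judged within a relative tolerance of 1e-06. Library totals were 11126968 to 14914827 reads. No count test was the main test. Log2(FPKM + 1) was fitted with limma 3.58.1 (R 4.3.3), using a trended, robust prior and adjusting p by Benjamini-Hochberg over the 13576 features that reached 1 FPKM in at least 3 libraries. On this scale the changes of low features come out too small. Ratios and shares used exact two-sided permutation tests (scipy 1.17.1). The scripts were tested on simulated data. In those for the fit far fewer features changed than here, as many up as down. An unequal change like that seen here was therefore not covered. Features most like each gene were named by Pearson's r, 1 per gene. The alternatives were the replicate block, each library left out, other pseudocounts, filters, scalings, priors and thresholds, and limma's voom on recovered reads.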

Additional observations from a re-analysis of the deposited data

How the results depend on the processing

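Between 7230 and 9308 features changed under 18 alternatives, against 9011 as reported, and between 8064 and 8335 with 1 library left out. Slc2a1, Hk2 and Ldha kept their direction and passed the threshold in all 18, with log2 fold changes of 1.39 to 1.59, 1.36 to 1.58 and -0.91 to -0.72. Gapdh kept its direction in all 18 and passed in 17. The exception was quantile normalization, at -0.049 with an adjusted p of 0.168 in limma, and its adjusted p lay between 8.01e-09 and 0.168 over the alternatives. The cause was not tested. Without 1 library the log2 fold change of Gapdh was -0.22 to -0.19. Of the 6 ratios, that of Slc2a1 to Hk2 reversed, from 0.023 to -0.021 with a pseudocount of 0.1 and -0.025 with 0.01, and the other 5 kept their direction in all 8 alternatives. The fall of the summed share was -0.0524 percentage points as a share of recovered reads and -0.156 with the 100 most abundant features taken out of the library total, against -0.0853. Gapdh and Ldha are among these 100 and were kept in the sum and, under this setting, in the fit of 13478 features. Rising features made up 63.7% of those that changed, and 49.8% with centring, 51.8% with quantile normalization, 53.1% when the most abundant features other than these 2 genes were left out and 49.5% with voom and median centring.

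With the replicate block, 8768 features changed, and the log2 fold changes of the 4 genes stayed past the threshold (highest adjusted p in limma 0.00238, for Gapdh). The labels do not pair libraries of the same number. Deviations from the group means correlated at -0.028, 0.0722 and 0.0274 between control and erastin libraries of the same number. Between those of different numbers the correlations were -0.069 to 0.0398. With 3 libraries per group, no permutation test here could go below 0.1. The genes had 785 to 26689 reads per library, a mean counting error of 0.673% (Ldha) to 3.27% (Hk2), both in control libraries.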
